A study of Mus musculus with 10 samples.

Results

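The genes described here encode the xenobiotic phase I and phase II enzymes in sorted mouse intestinal cells with and without p57Kip2. They are the cytochrome P450 genes (Cyp), the UDP-glucuronosyltransferase genes (Ugt), the glutathione S-transferase genes (Gst) and the sulfotransferase genes (Sult). They were picked by a rule on gene symbols, and Cyp51 and pseudogenes were left out. The rule uses no measured value, but it was set with earlier results of these data known. This gave 79 of the 20579 genes in the deposited table, of which 39 are Cyp, 10 Ugt, 21 Gst and 9 Sult genes. An expression filter kept 65 of them for testing, and the other 14 were too low, with no library above 5.16 CPM (counts scaled to a common library total).

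One genotype was p57KO, without p57Kip2, the cyclin-dependent kinase inhibitor encoded by Cdkn1c, and the other was p57WT. There were 5 libraries of each genotype. All were at E18.5, late in gestation, on a strain label naming C57BL6/J and 129S4, and all carried green fluorescent protein driven by the Hopx promoter, by which the cells were sorted from dissociated crypts. Hopx marks a slow-cycling population of the crypt. The part of Cdkn1c removed by the knockout allele was not stated in the labels. The design text speaks of 5 intestines per genotype, but no animal identifiers were given, so p-values measure the spread between these libraries.

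Phase I enzymes, chiefly the P450s, introduce or expose a polar group on a drug, toxin, steroid, fatty acid or sterol. P450s carry a heme, and most of them take electrons from cytochrome P450 reductase. Phase II enzymes then attach glucuronic acid (Ugt), glutathione (Gst) or sulfate (Sult), and transporters move the conjugates out of the cell. In the intestine this system is best known from absorptive enterocytes, where ingested compounds meet it before they reach the liver. Ligand-activated receptors such as the aryl hydrocarbon receptor, PXR and CAR and the oxidant-sensing factor NRF2 are its textbook regulators.

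Most of these enzyme genes were higher in p57KO. By edgeR's quasi-likelihood test, 43 of the 65 tested genes were higher in p57KO, 6 were lower and 16 did not pass an adjusted p of 0.05. Over all 16710 genes tested 36.5% passed, 19.3% higher and 17.2% lower in p57KO. The median log2 fold change was 1.61 over the 65 enzyme genes and 0.08 over all genes. Of the 43 higher genes, 39 were at least 2-fold and 26 at least 4-fold higher. All p57KO libraries were above all p57WT libraries for 30 of the 65 genes and below them for 3, against 11.5% and 12.7% of all genes. In the authors' deposited table, 48 of the 79 genes were higher in p57KO and 7 lower, where 20.5% and 17.0% of all genes were. All 49 edgeR calls had the same sign and call there.

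**Figure D1:**
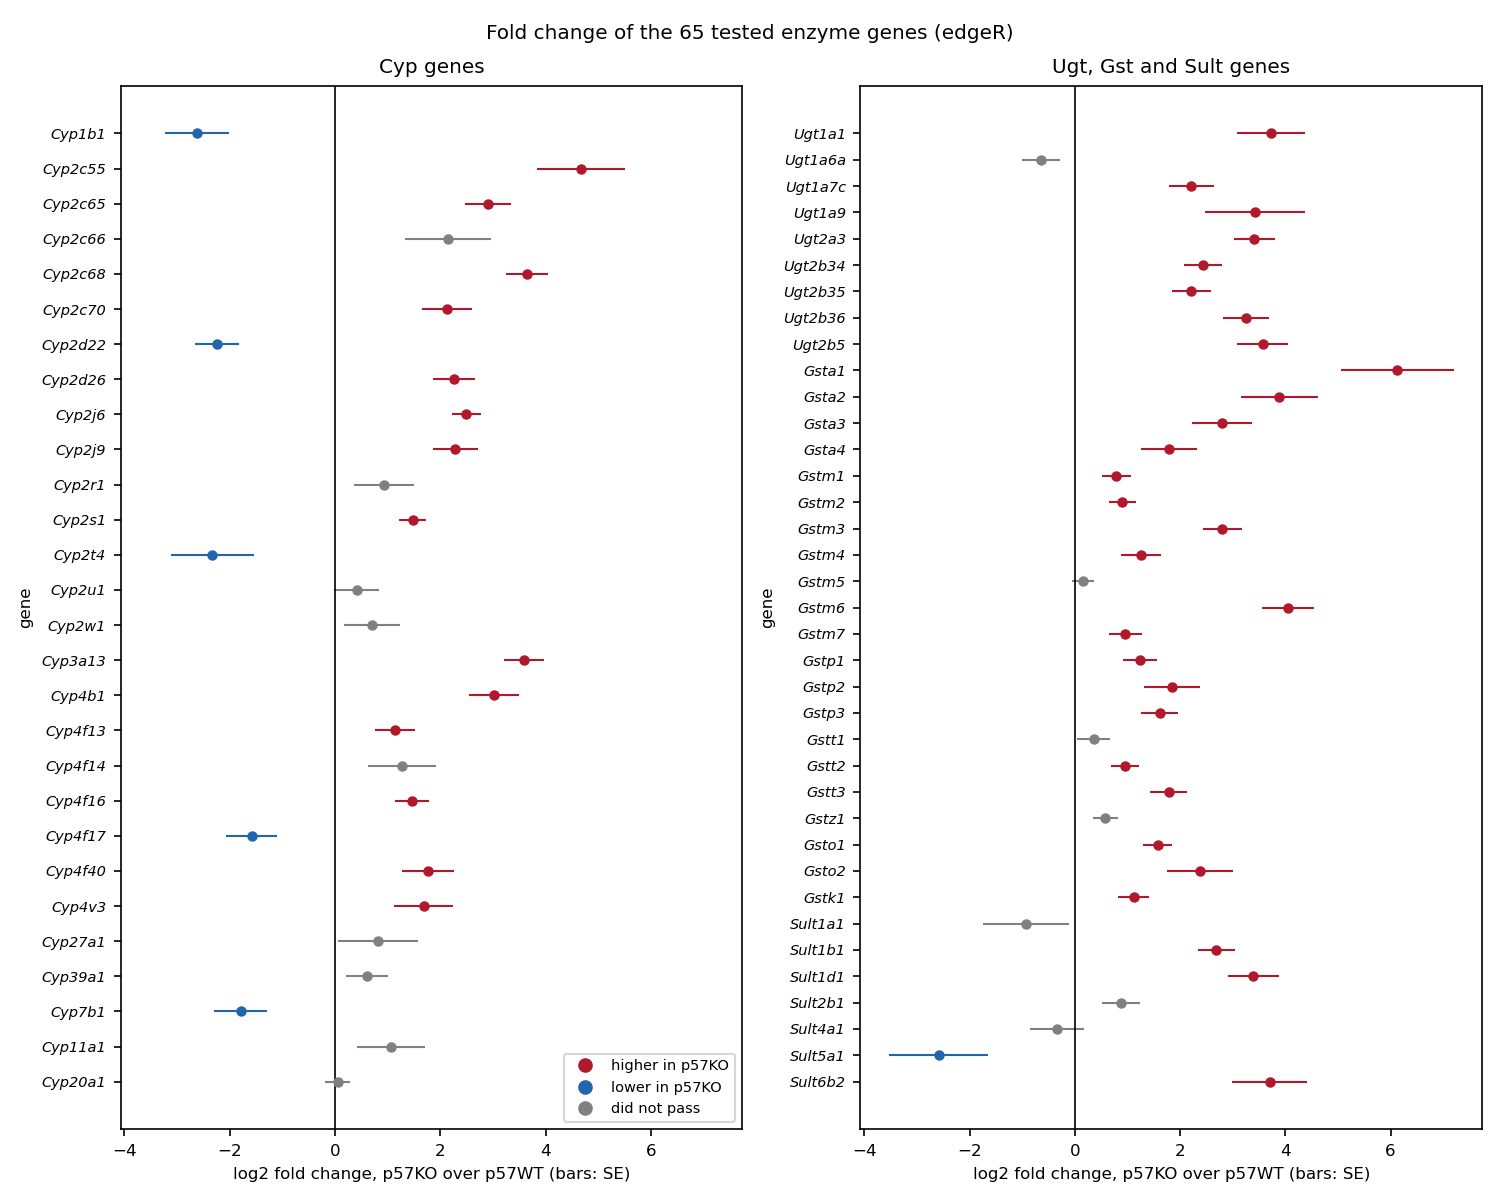
Log2 fold change of p57KO over p57WT (x axis) for each of the 65 tested enzyme genes (y axis), with bars of 1 standard error. Red genes were higher in p57KO (43), blue genes lower (6) and grey genes did not pass (16), and all 6 blue points are Cyp genes or Sult5a1.

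By family, calls are set beside the 19.3% of all tested genes that were higher and the 17.2% that were lower. Among Cyp genes 14 of 28 tested (50%) were higher in p57KO and 5 (17.9%) lower. Among Ugt genes 8 of 9 (88.9%) were higher and none lower, and among Gst genes 18 of 21 (85.7%) were higher and none lower. Among Sult genes 3 of 7 (42.9%) were higher and 1 (14.3%) lower. The shares of lower Cyp and Sult genes were near that of all genes. Summed over its members, the Ugt family reached 657 ± 300.1 CPM over p57KO and 111 ± 41.3 CPM over p57WT libraries (SD, n = 5 each). The Sult family reached 635 ± 168 CPM over p57KO and 84.8 ± 31.4 CPM over p57WT libraries, the Gst family 2015 ± 539 CPM over p57KO and 853 ± 132 CPM over p57WT libraries and the Cyp family 984 ± 269.9 CPM over p57KO and 439 ± 65.9 CPM over p57WT libraries. For each family the lowest p57KO library was above the highest p57WT library. A sum follows its genes with the most reads. Sult1d1 and Sult1b1, at means of 343 and 229 CPM over p57KO and 32.8 and 35.7 CPM over p57WT, held most of the Sult sum.

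The genotypes also differed in markers of cell types. Absorptive enterocyte markers summed to 4676 to 10513 CPM in p57KO libraries and 759 to 2241 CPM in p57WT libraries, and 19 of 22 tested markers were higher in p57KO. General epithelial markers summed to 9177 to 17697 CPM in p57KO and 3145 to 7609 CPM in p57WT, with 15 of 18 higher. Smooth muscle markers summed to 5209 to 36703 CPM in p57KO and 49881 to 110937 CPM in p57WT, with 12 of 12 lower, and fibroblast markers to 144 to 1232 CPM in p57KO and 2446 to 8767 CPM in p57WT, with 5 of 6 lower. Secretory epithelial markers summed to 11588 to 19127 CPM in p57KO and 1423 to 3209 CPM in p57WT, with 16 of 21 higher and 1 lower, and macrophage and neutrophil markers to 209 to 7763 CPM in p57KO and 28.2 to 160.3 CPM in p57WT, with 10 of 12 higher. Erythroid markers summed to 105 to 1310 CPM in p57KO and 3.14 to 87.8 CPM in p57WT, with 7 of 8 higher. Pancreatic acinar markers summed to 195 to 612 CPM in p57KO and 20.3 to 44.8 CPM in p57WT. Of 12 listed acinar genes only 3 were present, and 3 of 3 were higher. Sums overlapped between the genotypes for the endothelial, enteric neuron and glia, steroid-producing cell, and mast cell and lymphocyte lists. Among tested markers of these lists in that order, higher and lower genes were 0 and 0 of 5, 1 and 3 of 8, 0 and 1 of 3, and 1 and 1 of 2. The cells are labelled as intestinal stem cells. In p57KO 3 to 5 and in every p57WT library the sum of 12 smooth muscle markers was above that of 18 general epithelial markers. These sums are not per length and depend on the genes listed, so they give no shares of cells. In such bulk samples fewer cells of a type and less RNA per cell cannot be told apart. The part of these marker differences in the enzyme results was not tested.

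**Figure D2:**
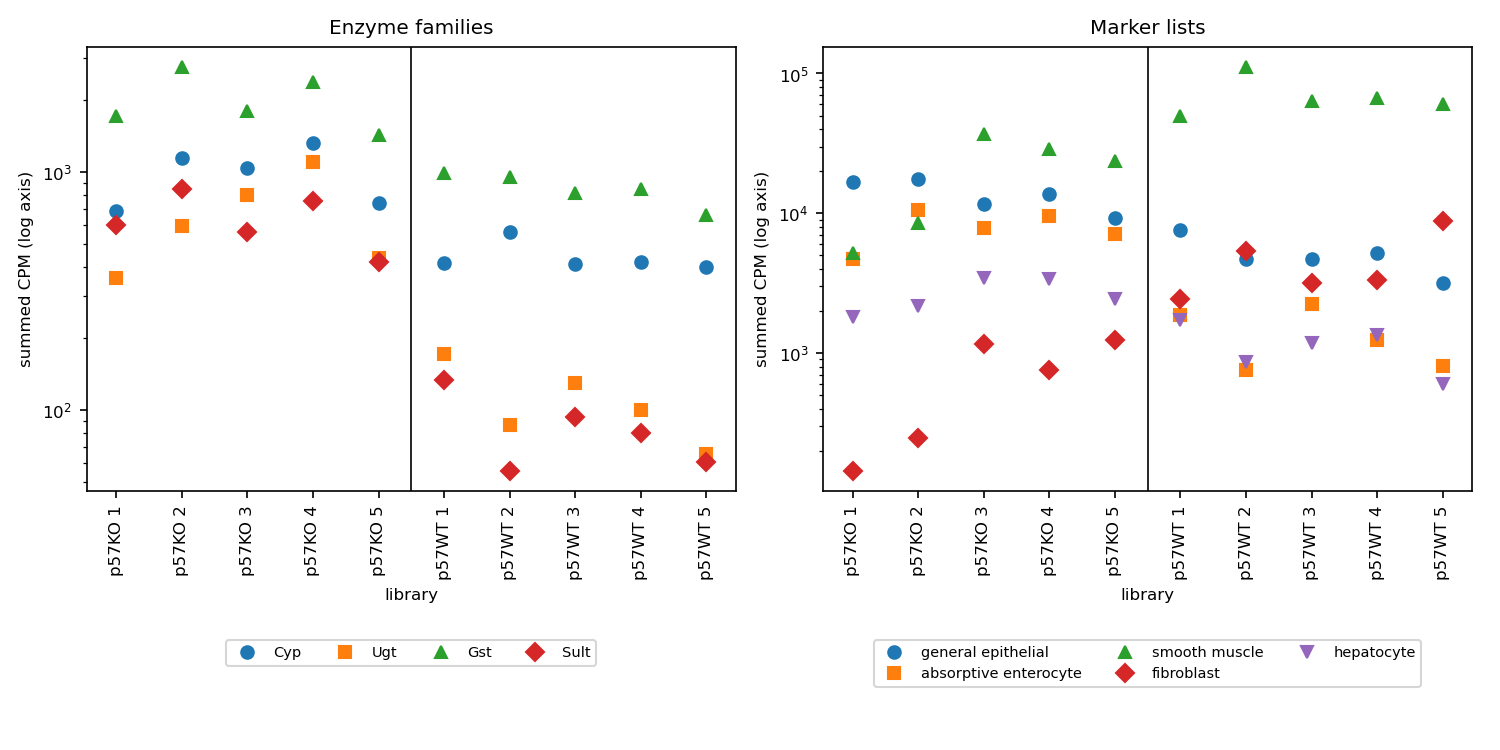
Summed CPM on a log axis in each library, p57KO left of the line and p57WT right of it, for the 4 enzyme families (left panel) and 5 marker lists (right panel). The enterocyte and epithelial sums lie higher in every p57KO library than in any p57WT library, as the enzyme families do, and the smooth muscle and fibroblast sums lie lower.

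On a scale set by the epithelial markers, the median of all genes was -1.20 and that of the enzyme genes 0.37. On that scale 23 of the 65 enzyme genes were higher in p57KO and 12 lower, where 2.97% of all genes were higher and 58.7% lower, and 55 of the 65 lay above the all-gene median. Of called genes over the whole table, 4.81% were higher on that scale and 52.8% on the main scale. The hepatocyte list, for a tissue rich in these enzymes, was also higher in p57KO, at 1811 to 3428 CPM in p57KO and 605 to 1737 CPM in p57WT, with 9 of 12 markers higher and 1 lower. Its defining genes Alb, Ahsg, Hp and Hpx were not analysed here. Cps1, which the intestinal epithelium also expresses, was at 1192, 604, 2754, 2757 and 2003 CPM in p57KO 1 to 5, against 1589, 821, 1109, 1272 and 534 CPM in p57WT 1 to 5, most of the sum in every library but p57KO 2. The part of hepatocyte RNA was not tested.

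Depth, RNA content and label numbers were also unevenly spread. Total counts were 8037887 to 26809231 per library, and 3 counts, the most that a count of 0 allows, corresponded to 0.105 to 0.391 CPM. Cdkn1c ranged from 0.153 to 2.06 CPM over p57KO libraries and from 150.04 to 457 CPM over p57WT libraries, and Hopx from 126 to 199 CPM over p57KO and 60.2 to 77.8 CPM over p57WT libraries. Ribosomal RNA repeat features held under 0.5% of counts in p57KO 1 to 4 and p57WT 2, and 9.47% to 17.0% in the other 5 libraries. The low class thus held p57WT 2 as its lone p57WT library, and the high class p57KO 5 as its lone p57KO library. This class is nearly confounded with genotype, so a fit with it as a term rests heavily on these libraries. Each label carries a number whose meaning was not given, 607 for p57KO 1, p57KO 2 and p57WT 1, 608 for p57KO 3 to 5 and 740 for p57WT 2 to 5. Within 607, where 2 p57KO libraries met 1 p57WT library, 9 enzyme genes were higher and 2 lower in p57KO, against 1.10% and 4.94% of all genes. The lone p57WT library of 607 is assumed there to vary like the other libraries, and 608 and 740 supply most of the spread. The higher genes were Cyp2c55, Cyp3a13, Ugt2a3, Gsta1, Gsta3, Gsta4, Gstm6, Gstt3 and Sult1d1 and the lower ones Cyp1b1 and Cyp7b1, and the other 38 of the 49 calls were lost. With the ribosomal RNA class as a term, 28 were higher and 2 lower, against 7.22% and 10.5% of all genes. That fit kept all 8 Ugt calls, 13 of 19 Cyp, 3 of 4 Sult and 5 of 18 Gst calls. The 6 Cyp calls lost were those of Cyp2j9, Cyp2t4, Cyp4f13, Cyp4f17, Cyp4v3 and Cyp7b1 (edgeR adjusted p = 0.0534 to 0.505), and the Sult call lost was that of Sult5a1.

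**Figure D3:**
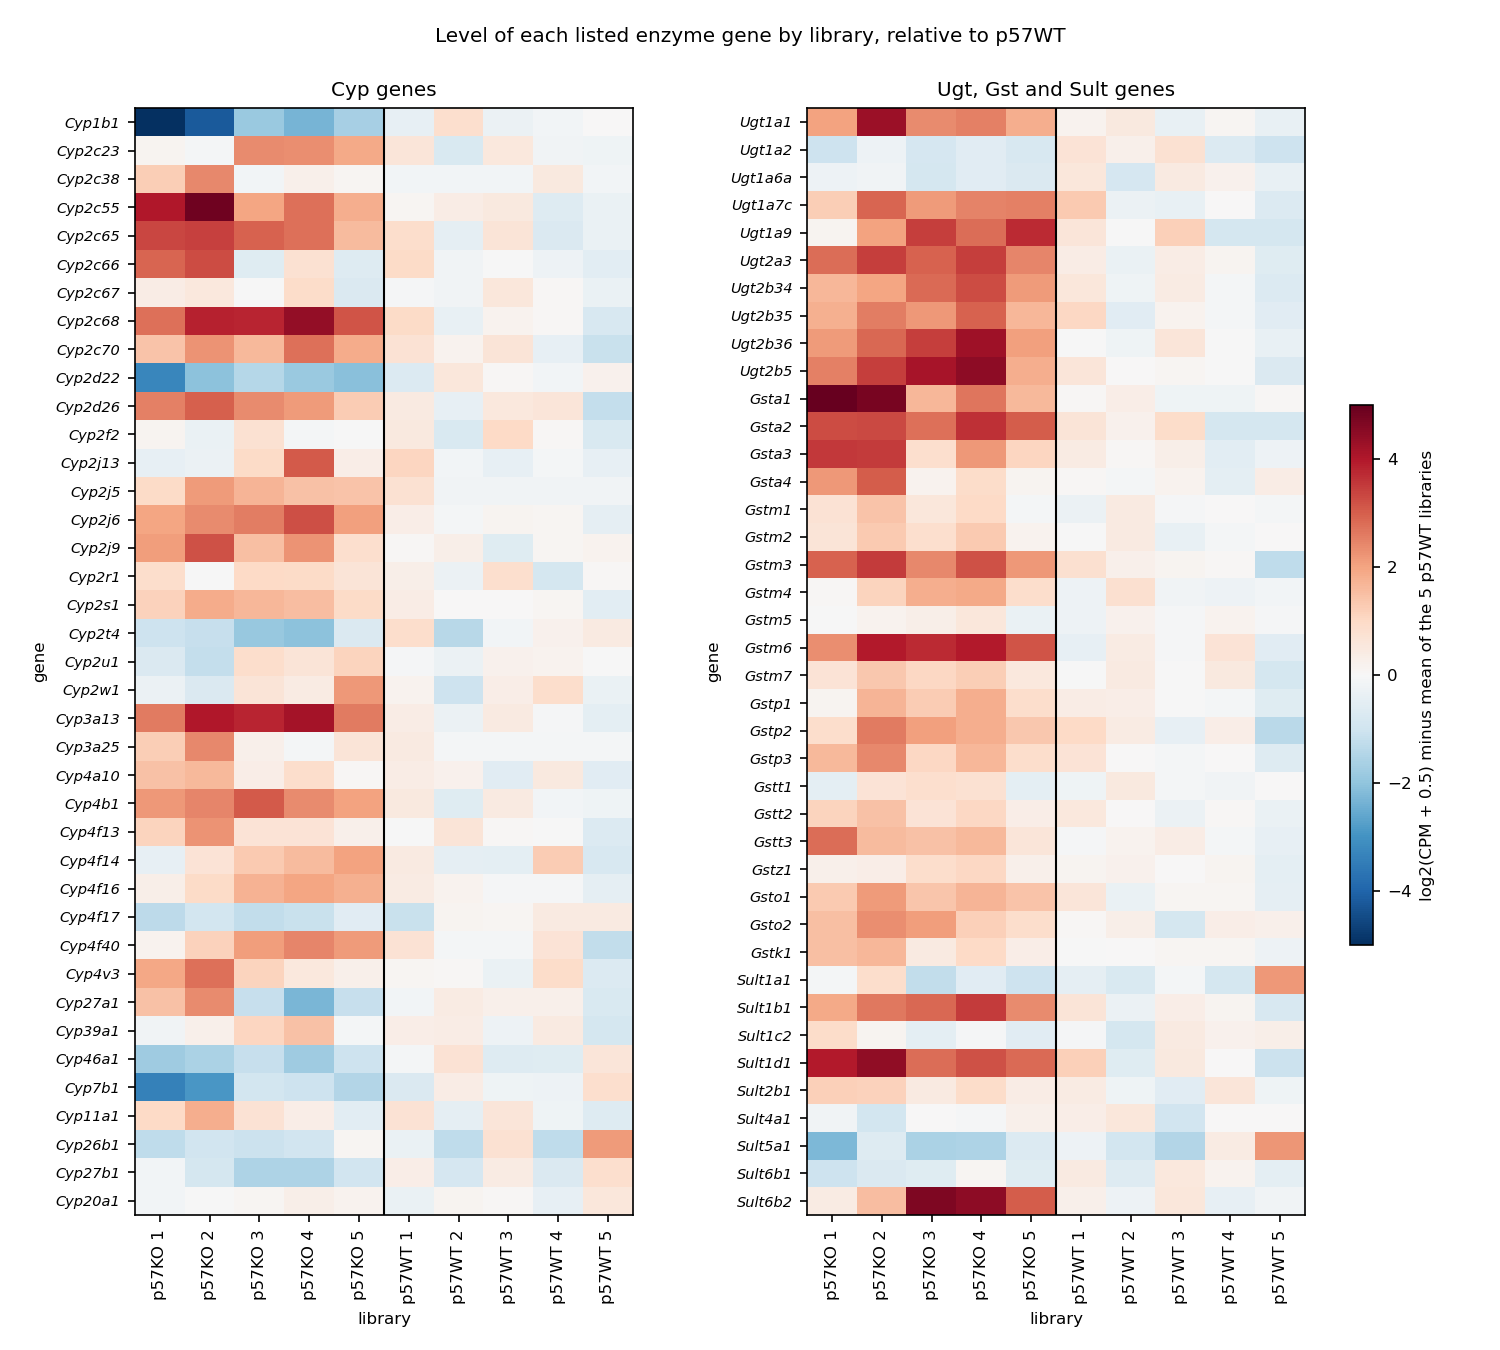
Log2(CPM + 0.5) of each of the 79 enzyme genes (rows) in each library (columns), minus the mean of the 5 p57WT libraries, with red for higher and blue for lower, p57KO left of the line and p57WT right of it. Red runs through the p57KO columns of the Ugt2, Gsta2 and Gstm3 rows, Cyp1b1 and Cyp7b1 are blue there, and some rows, such as Sult6b2 and Gsta1, differ between p57KO 1 and 2 and p57KO 3 to 5.

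Among phase I genes, the Cyp2c subfamily, which oxidises drugs and arachidonic acid, was higher in p57KO in 4 of 5 tested members. All members but Cyp2c23 lie within 1180.3 kb of chromosome 19. Cyp2c68 (ENSMUSG00000074882, chromosome 19, 39688834 to 39741054, minus strand, GRCm38) had the most reads of them, at 68.8, 148, 144, 215 and 89.97 CPM in p57KO 1 to 5, against 19.2, 7.44, 10.98, 10.2 and 5.32 CPM in p57WT 1 to 5. Every p57KO library was above every p57WT library, the lowest being p57KO 1 and the highest p57WT library p57WT 1 (log2 fold change 3.65 with an SE of 0.40, edgeR adjusted p = 0.000183). Of its 150-base windows, about the read length, 8.83% are identical to Cyp2c40, so some reads may be split. Cyp2c55, which oxidises arachidonic acid, had 11.9, 22.5, 2.55, 4.82 and 2.26 CPM in p57KO 1 to 5, against 0.34, 0.512, 0.603, 0 and 0.118 CPM in p57WT 1 to 5. The genotypes did not overlap, and p57KO 1 and 2 stood above p57KO 3 to 5 (log2 fold change 4.68 with an SE of 0.84, edgeR adjusted p = 0.00141).

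Cyp2c65 had a log2 fold change of 2.91 (edgeR adjusted p = 0.000593), and Cyp2c70, which makes muricholic acids in the mouse, one of 2.13 (edgeR adjusted p = 0.00482). For both genes all p57KO libraries were above all p57WT libraries. Cyp2c66 was at 17.8, 23.1, 1.08, 3.63 and 1.04 CPM in p57KO 1 to 5, against 4.198, 1.65, 1.93, 1.56 and 1.18 CPM in p57WT 1 to 5. Here p57KO 1 and 2 were high, p57KO 4 lay within the p57WT range and p57KO 3 and 5 lay just below it, and the gene did not pass (edgeR adjusted p = 0.0544). Cyp2c66 was called higher by DESeq2 (DESeq2 adjusted p = 0.0128) and in the authors' deposited table, but not by limma voom (limma voom adjusted p = 0.354). Without p57KO 1 and 2 its log2 fold change was -0.04, and without p57KO 3, p57KO 5 or p57WT 1 alone it passed at 2.45, 2.44 and 2.55. Cyp2c23, Cyp2c38 and Cyp2c67 were too low to test.

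The promoter of Cyp2c55 is shown because this gene had the largest increase of the P450s over all libraries. Without p57KO 2 its log2 fold change was 3.96, and without p57KO 1 and 2 it was 3.31, below those of Cyp2c68 (3.89) and Cyp3a13 (3.73). It is given for chr19:39006769-39007068, plus strand, from RefSeq on GRCm38.p6, 250 bases before to 50 bases after the start. Capitals mark CAATAAA, the reverse complement of the caudal (CDX) motif TTTATNG, 232 bases before the start, and the GATA motif AGATAA 97 bases before it.
Cyp2c55: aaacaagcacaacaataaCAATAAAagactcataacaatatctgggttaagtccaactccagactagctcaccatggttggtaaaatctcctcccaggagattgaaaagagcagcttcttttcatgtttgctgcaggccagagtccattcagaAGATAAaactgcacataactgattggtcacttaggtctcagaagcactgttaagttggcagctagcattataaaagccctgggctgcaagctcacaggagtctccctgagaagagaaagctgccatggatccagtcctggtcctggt

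Other Cyp2c promoters held the HNF4 motif CAAAGTCCA, which 4 of 50 promoters of higher genes (8.0%) and 0.475% of all 32851 promoters in the RefSeq table hold. The following stretches, chosen after the counts were seen, show it in capitals in 4 neighbouring genes, with 12 bases on each side. Each is read in the direction of its gene, and the motif begins 116, 125, 77 and 64 bases before the start in the order given.
Cyp2c65 (in chr19:39060756-39061055, plus strand): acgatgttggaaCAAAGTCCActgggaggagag
Cyp2c67 (in chr19:39648993-39649292, minus strand): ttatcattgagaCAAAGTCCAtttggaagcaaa
Cyp2c68 (in chr19:39741052-39741351, minus strand): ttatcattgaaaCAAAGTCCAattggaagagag
Cyp2c70 (in chr19:40187237-40187536, minus strand): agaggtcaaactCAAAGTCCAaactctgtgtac
The remaining match among higher genes was in Sult1b1, 26 bases after its start. Cyp2c67, not tested, carries the letters too. A match is a description of these letters and not of binding.

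Of the other Cyp2 genes, Cyp2j6, whose subfamily makes epoxides of arachidonic acid, had the most reads of the Cyp2 genes, at 179, 236, 272, 428 and 193 CPM in p57KO 1 to 5, against 56.8, 42.7, 49.8, 49.03 and 33.4 CPM in p57WT 1 to 5. The genotypes were far apart, and p57KO 1 and p57WT 1 were the nearest libraries (log2 fold change 2.50 with an SE of 0.28, edgeR adjusted p = 0.000199). Its neighbour Cyp2j9 was also higher (log2 fold change 2.29, edgeR adjusted p = 0.00196), as was Cyp2s1, an extrahepatic P450 of epithelia (log2 fold change 1.48, edgeR adjusted p = 0.00134). The Cyp2 counts were 8 higher and 2 lower of 14 tested, and on the epithelial scale 5 higher and 2 lower.

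Cyp2d22 and Cyp2d26 span 423.8 kb of chromosome 15 and moved in opposite directions. Cyp2d22 (ENSMUSG00000061740, chromosome 15, 82370527 to 82380260, minus strand), often set beside human CYP2D6, was at 0.943, 2.83, 4.71, 3.33 and 2.78 CPM in p57KO 1 to 5, against 8.05, 20.1, 14.1, 12 and 15.6 CPM in p57WT 1 to 5. All p57KO libraries were below all p57WT libraries, and p57KO 1 was the lowest (log2 fold change -2.25 with an SE of 0.41, edgeR adjusted p = 0.0017). Cyp2d26 was at 58.04, 81.3, 52.2, 44.96 and 24.4 CPM in p57KO 1 to 5, against 13.4, 7.17, 14.5, 15.3 and 4.02 CPM in p57WT 1 to 5. There all p57KO libraries were above all p57WT libraries (log2 fold change 2.27 with an SE of 0.40, edgeR adjusted p = 0.00136). Within 607 neither passed.

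Cyp3a13, the Cyp3a form of mouse small intestine and a relative of the main human drug-metabolising P450, was the only Cyp3 gene tested. It was found at 81.8, 221, 189.8, 243 and 81.99 CPM in p57KO 1 to 5, against 17.02, 10.7, 18.3, 12.8 and 9.22 CPM in p57WT 1 to 5. No p57WT library came near the lowest p57KO libraries, p57KO 1 and 5 (log2 fold change 3.59 with an SE of 0.38, edgeR adjusted p = 0.000178), and within 607 its log2 fold change was 3.15 (edgeR adjusted p = 0.0366). Cyp3a25 was too low to test.

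The Cyp4 genes, which hydroxylate fatty acids and leukotrienes at the omega end, were higher in p57KO in 5 of 7 tested members and lower in 1. On the epithelial scale only Cyp4b1 was higher, Cyp4f17 lower and the sign of Cyp4f13 turned. Cyp4f16 had the most reads of them, at 18.7, 30.4, 52.5, 60.6 and 53.8 CPM in p57KO 1 to 5, against 20.5, 17.3, 14.5, 14.6 and 10.9 CPM in p57WT 1 to 5. p57KO 1 lay below p57WT 1, and the other p57KO libraries were above all p57WT libraries (log2 fold change 1.47 with an SE of 0.32, edgeR adjusted p = 0.00426). Cyp4b1 rose by a log2 fold change of 3.02 (edgeR adjusted p = 0.000759) and Cyp4f40 by 1.77 (edgeR adjusted p = 0.015). Cyp4f13 and Cyp4v3 had log2 fold changes of 1.14 and 1.68, but each lost its call in 5 of the 10 fits that left out 1 library. Without p57KO 2 the values were 0.69 and 1.11 (edgeR adjusted p = 0.0762 and 0.0988), and the other libraries that ended the call were p57WT 1, 3 and 5 for both, p57WT 4 for Cyp4f13 and p57WT 2 for Cyp4v3. Cyp4f17 was lower at -1.59 and lost its call without p57KO 3, p57KO 4, p57WT 4 or p57WT 5 (edgeR adjusted p = 0.0597 to 0.0642). The 5 Cyp4f genes share 441.4 kb of chromosome 17, where 3 were higher and 1 lower.

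Cyp1b1, which oxidises polycyclic hydrocarbons and estradiol and is a textbook target of the aryl hydrocarbon receptor, had the largest decrease. It was found at 2.91, 8.65, 45.9, 33.2 and 52.8 CPM in p57KO 1 to 5, against 125, 298, 137, 151 and 171 CPM in p57WT 1 to 5 (ENSMUSG00000024087, chromosome 17, 79701537 to 79715061, minus strand). The genotypes did not overlap, p57KO 1 and 2 were the lowest and p57WT 2 the highest (log2 fold change -2.62 with an SE of 0.61, edgeR adjusted p = 0.00609). Per kilobase of exon it ranked 42nd of 79 in p57KO and 6th in p57WT. Within 607 its log2 fold change was -4.42 (edgeR adjusted p = 0.00176), and without p57KO 1 and 2 it was -1.95, where Cyp2t4 was lower at -2.77. Smooth muscle and fibroblast sums were also lowest in p57KO 1 and 2, and their part in this decrease was not tested.

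The Cyp1b1 promoter is shown beside that of Cyp2c55 for contrast (chr17:79715012-79715311, minus strand, RefSeq on GRCm38.p6). None of the 6 motifs searched was in this window, which says only that those letters are absent from it, so it holds no capitals.
Cyp1b1: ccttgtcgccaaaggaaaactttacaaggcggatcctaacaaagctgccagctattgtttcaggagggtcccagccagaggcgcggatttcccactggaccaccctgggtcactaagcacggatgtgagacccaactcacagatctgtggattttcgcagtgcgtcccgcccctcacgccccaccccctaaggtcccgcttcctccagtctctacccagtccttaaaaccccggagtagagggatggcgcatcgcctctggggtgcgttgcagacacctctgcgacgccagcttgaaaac

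Few P450s that act on sterols, bile acids and hormones were tested. Of 3 tested sterol genes none was higher and 1, Cyp7b1, was lower, where 19.3% and 17.2% of all genes were. So few genes cannot be told apart from these shares. Cyp7b1 is the oxysterol 7-alpha-hydroxylase and was at 1.71, 2.58, 11.7, 10.7 and 7.72 CPM in p57KO 1 to 5, against 13.5, 28.7, 18.9, 18.8 and 39.8 CPM in p57WT 1 to 5. All p57KO libraries were below all p57WT libraries, p57KO 1 and 2 by most (log2 fold change -1.79 with an SE of 0.51, edgeR adjusted p = 0.0152). Without p57KO 1 and 2 its log2 fold change was -1.18 (edgeR adjusted p = 0.0211), and with the ribosomal RNA class as a term -1.83 without a call (edgeR adjusted p = 0.0581). Cyp27a1, the sterol 27-hydroxylase, was at 24.3, 45.4, 3.56, 1.34 and 3.56 CPM in p57KO 1 to 5, against 7.71, 11.4, 10.1, 10.2 and 4.84 CPM in p57WT 1 to 5. It was high in p57KO 1 and 2 and below all p57WT libraries in the other 3 p57KO libraries, and the test over all libraries did not pass (log2 fold change 0.81, edgeR adjusted p = 0.414). Without p57KO 1 and 2 it was -1.61 (edgeR adjusted p = 0.0123), and without p57KO 2 alone -0.19.

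Cyp39a1 had a log2 fold change of 0.60 and did not pass (edgeR adjusted p = 0.245). Cyp46a1, the cholesterol 24-hydroxylase, was too low to test, at 0, 0.0844, 0.279, 0 and 0.347 CPM in p57KO 1 to 5, against 1.13, 2.36, 0.603, 0.652 and 2.13 CPM in p57WT 1 to 5. Cyp11a1, which starts steroid synthesis by cleaving the cholesterol side chain, was at 2.14, 4.26, 1.71, 1.19 and 0.434 CPM in p57KO 1 to 5, against 1.702, 0.473, 1.57, 0.652 and 0.354 CPM in p57WT 1 to 5. The genotypes overlapped (edgeR adjusted p = 0.2). Cyp26b1, which breaks down retinoic acid, was too low to test, with at most 0.781 CPM in p57KO and 4.73 CPM in p57WT. Cyp20a1, an orphan P450, was at 21.4, 23.3, 25.3, 28.7 and 26.6 CPM in p57KO 1 to 5, against 18.49, 25.5, 24.4, 17.7 and 34.7 CPM in p57WT 1 to 5, and its fold change was smaller than its error (log2 fold change 0.05 with an SE of 0.23, edgeR adjusted p = 0.878).

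**Figure D4:**
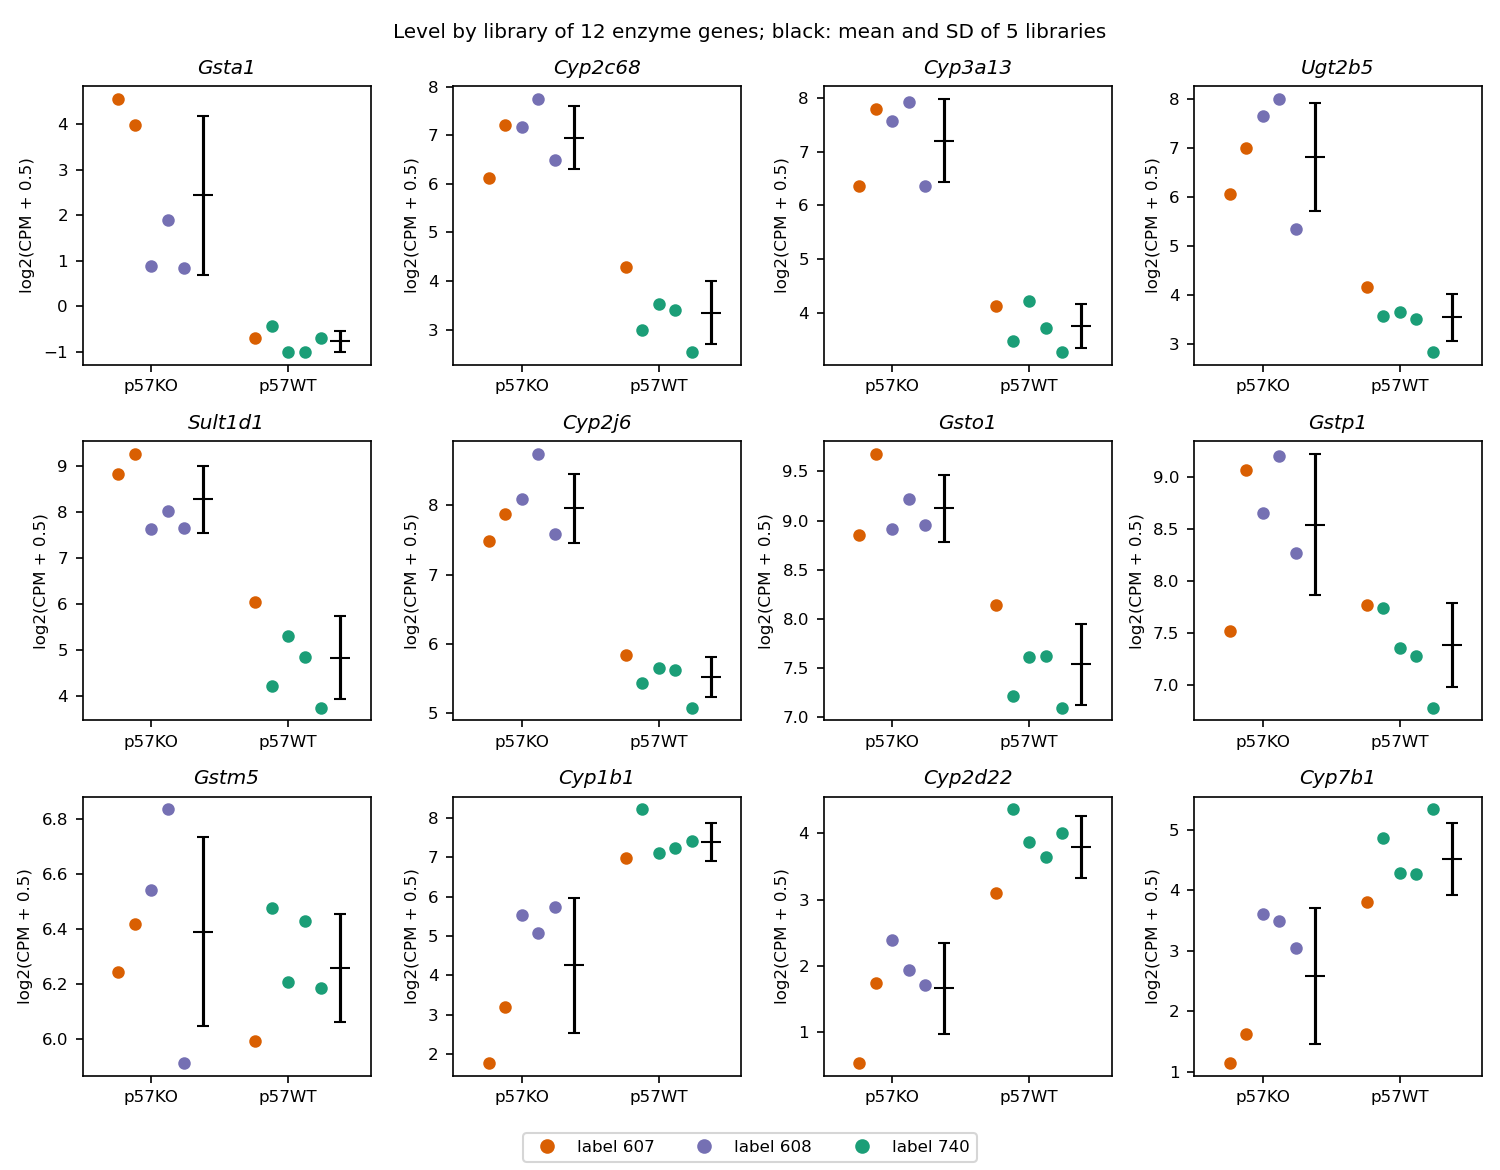
Log2(CPM + 0.5) in each library for 12 enzyme genes, p57KO left and p57WT right, with points coloured by label number and black marks for the mean and SD of 5 libraries. Cyp2c68, Cyp3a13, Ugt2b5, Sult1d1, Cyp2j6, Gsto1 and Gsta1 are separated upwards in p57KO, Cyp1b1, Cyp2d22 and Cyp7b1 downwards, and Gstp1 and Gstm5 overlap.

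Among phase II genes, the Ugt2 genes, which conjugate steroids, bile acids and many drugs, were all higher. All 5 tested members passed on the main and on the epithelial scale, and on the main scale every p57KO library was above every p57WT library. Within 607 only Ugt2a3 passed (log2 fold change 3.06, edgeR adjusted p = 0.0435), while Ugt2b34 was at 1.27, Ugt2b35 at 1.20, Ugt2b36 at 2.65 and Ugt2b5 at 2.47 (edgeR adjusted p = 0.218, 0.273, 0.0859 and 0.135). Ugt2b34 (ENSMUSG00000029260, chromosome 5, 86889767 to 86906937, minus strand) had the most reads of them, at 173, 213, 388, 529 and 236 CPM in p57KO 1 to 5, against 80.1, 47.1, 72.5, 50.98 and 33.3 CPM in p57WT 1 to 5. The nearest libraries were p57KO 1 and p57WT 1 (log2 fold change 2.44 with an SE of 0.36, edgeR adjusted p = 0.000577). Ugt2b5 had the largest change of them, at 66.3, 128, 202, 257 and 40.1 CPM in p57KO 1 to 5, against 17.5, 11.3, 12.1, 10.95 and 6.62 CPM in p57WT 1 to 5. Here p57KO 5 was the lowest of its genotype and still above p57WT 1 (log2 fold change 3.57 with an SE of 0.48, edgeR adjusted p = 0.000392). Ugt2a3 was at 12.3, 19.8, 13.6, 19.9 and 9.46 CPM in p57KO 1 to 5, against 1.93, 0.985, 1.93, 1.56 and 0.709 CPM in p57WT 1 to 5, with little spread in either genotype (log2 fold change 3.41 with an SE of 0.39, edgeR adjusted p = 0.000216). Ugt2b35 and Ugt2b36 had log2 fold changes of 2.21 and 3.25. Of the 150-base windows of Ugt2b5, 19.5% are identical to Ugt2b38, so its reads may be split.

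These Ugt2 genes share a stretch of chromosome 5 with Sult1b1 and Sult1d1. The 7 genes span 679.3 kb, and 7 of 7 were higher, with log2 fold changes of 2.21 to 3.57. In all, 52 of the 79 genes lie in 13 such clusters, counted where neighbours are within 500 kb. Promoters of the neighbours Ugt2b35 and Ugt2b36, which rose by 2.21 and 3.25 on the log2 scale, held the GATA motif at the same distance of 32 bases before the start. The Ugt2b36 promoter also held it 197 and 130 bases before the start. The matches at 32 bases are shown in capitals in the direction of each gene, chosen after all matches were seen.
Ugt2b35 (in chr5:87000610-87000909, plus strand): tttcttcttcttAGATAAgaggacaggcag
Ugt2b36 (in chr5:87092506-87092805, minus strand): caaatgcttcttAGATAAaaggtcaagcag

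The Ugt1a genes are alternative starts of 1 locus on chromosome 1, 149.2 kb in span, and share their last exons. Ugt1a1, the bilirubin-conjugating form, has 385 unshared bases in 2224 bases of exon, and under 50% of exon bases are unshared in all 5 members. How the authors' counting treated such reads was not given, so single Ugt1a values are uncertain. Of the 4 tested, 3 were higher and none lower, on the epithelial scale 3 higher and 1 lower. Ugt1a7c had the most reads of them, at 26.2, 85.9, 49.9, 63.2 and 63.9 CPM in p57KO 1 to 5, against 27.7, 8.902, 8.201, 11.1 and 6.62 CPM in p57WT 1 to 5. p57KO 1 lay just below p57WT 1, which was itself far above the other p57WT libraries (log2 fold change 2.21 with an SE of 0.42, edgeR adjusted p = 0.00206). Ugt1a1 was at 3.34, 18.03, 4.47, 5.01 and 2.86 CPM in p57KO 1 to 5, against 0.567, 0.827, 0.241, 0.522 and 0.236 CPM in p57WT 1 to 5. The genotypes did not overlap and p57KO 2 stood out (log2 fold change 3.73 with an SE of 0.64, edgeR adjusted p = 0.00118).

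Ugt1a9 was at 0.514, 3.21, 9.63, 5.89 and 11.5 CPM in p57KO 1 to 5, against 0.908, 0.394, 1.57, 0 and 0 CPM in p57WT 1 to 5. p57KO 1 lay among the p57WT libraries and the other 4 above them (log2 fold change 3.43 with an SE of 0.95, edgeR adjusted p = 0.0136). Ugt1a6a, a form for small phenols, had a log2 fold change of -0.64 and did not pass (edgeR adjusted p = 0.179), but was lower on the epithelial scale at -1.84 (edgeR adjusted p = 0.00112). Ugt1a2 was too low to test.

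The glutathione S-transferases of the alpha class, which reduce lipid peroxides and conjugate toxins such as aflatoxin, were higher in 4 of 4 tested members on the main scale and 3 of 4 on the epithelial scale. Over all Gst classes, 13 of 18 calls were lost with the ribosomal RNA class as a term, those of Gsta3, Gsta4, Gstk1, Gstm1, Gstm2, Gstm4, Gstm7, Gsto2, Gstp1, Gstp2, Gstp3, Gstt2 and Gstt3 (edgeR adjusted p = 0.0675 to 0.539). Gsta1 (ENSMUSG00000074183, chromosome 9, 78230656 to 78242684, plus strand) had the largest increase of all, at 23.1, 15.4, 1.36, 3.21 and 1.301 CPM in p57KO 1 to 5, against 0.113, 0.236, 0, 0 and 0.118 CPM in p57WT 1 to 5. p57KO 1 and 2 were the highest and the p57WT libraries lay near or at 0 (log2 fold change 6.13 with an SE of 1.07, edgeR adjusted p = 0.00126). Pooled over libraries, 771 counts in p57KO stood against 8 in p57WT, a level 55.6 times the p57WT level (95% counting interval 28.1 to 129), which covers counting error only. Without p57KO 1 and 2 its log2 fold change was 4.06 (edgeR adjusted p = 0.00233), below those of Sult6b2 (4.41) and Gstm6 (4.23). Because 68.4% of its 150-base windows are identical to Gsta2 or to the unnamed Gm10639 and Gm3776, reads could be split or lost.

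The Gsta1 promoter is shown because of this largest change (chr9:78230419-78230718, plus strand, RefSeq on GRCm38.p6). None of the motifs searched was in this window, so it holds no capitals.
Gsta1: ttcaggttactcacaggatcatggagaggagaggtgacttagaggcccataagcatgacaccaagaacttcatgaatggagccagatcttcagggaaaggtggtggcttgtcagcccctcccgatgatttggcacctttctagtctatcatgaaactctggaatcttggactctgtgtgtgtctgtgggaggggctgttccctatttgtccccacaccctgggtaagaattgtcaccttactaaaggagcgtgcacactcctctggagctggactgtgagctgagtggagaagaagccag

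Gsta2 was at 8.32, 8.53, 5.65, 10.8 and 7.03 CPM in p57KO 1 to 5, against 0.908, 0.551, 1.21, 0 and 0 CPM in p57WT 1 to 5. It was alike in all p57KO libraries and did not overlap with p57WT (log2 fold change 3.89 with an SE of 0.72, edgeR adjusted p = 0.00179). Gsta4, which clears the lipid aldehyde 4-hydroxynonenal and had the most reads of the alpha genes, was at 35.7, 64.1, 8.48, 14.5 and 8.16 CPM in p57KO 1 to 5, against 7.71, 6.93, 8.56, 5.22 and 9.69 CPM in p57WT 1 to 5. p57KO 1 and 2 were high, p57KO 4 lay above the p57WT libraries and p57KO 3 and 5 lay among them (log2 fold change 1.78 with an SE of 0.53, edgeR adjusted p = 0.0199). The call was lost without p57KO 2 (log2 fold change 1.11, edgeR adjusted p = 0.0598) and without p57WT 4 (edgeR adjusted p = 0.0514). It was also lost without both p57KO 1 and 2, at 0.51 on the log2 scale (edgeR adjusted p = 0.218). Gsta3 was higher at 2.80 (edgeR adjusted p = 0.00276), and at 1.66 without p57KO 1 and 2 (edgeR adjusted p = 0.00983).

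The mu class genes lie together on chromosome 3 within 149.1 kb, and their changes ranged from none detectable to the third largest of all members. Of 7 tested, 6 were higher on the main scale, while on the epithelial scale 2 (Gstm3 and Gstm6) were higher, Gstm5 was lower and the sign of Gstm1, Gstm2, Gstm4, Gstm5 and Gstm7 turned. Gstm6 was at 6.001, 19.3, 16.5, 19.6 and 10.9 CPM in p57KO 1 to 5, against 0.454, 1.18, 0.724, 1.56 and 0.354 CPM in p57WT 1 to 5. All p57KO libraries were above all p57WT libraries (log2 fold change 4.05 with an SE of 0.50, edgeR adjusted p = 0.000286), and within 607 its log2 fold change was 4.79 (edgeR adjusted p = 0.025). Gstm3 rose by 2.80 (edgeR adjusted p = 0.000385) without overlap. Gstm1 had the most reads of them, at 181, 297, 165, 218 and 104 CPM in p57KO 1 to 5, against 89.9, 150.04, 105, 111 and 104 CPM in p57WT 1 to 5. The genotypes overlapped, p57KO 5 being level with several p57WT libraries (log2 fold change 0.78 with an SE of 0.27, edgeR adjusted p = 0.0397). Its call was lost without p57KO 2, p57KO 4, p57WT 1, p57WT 3, p57WT 4 or p57WT 5 (edgeR adjusted p = 0.0796 to 0.0896).

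Gstm2 had a log2 fold change of 0.90 and kept its call in each fit that left out 1 library, but lost it with the ribosomal RNA class as a term (0.46, edgeR adjusted p = 0.231), within 607 (edgeR adjusted p = 0.275) and on the epithelial scale (-0.41, edgeR adjusted p = 0.295). Gstm4 (1.26) lost it without p57KO 3, p57KO 4, p57WT 3 or p57WT 4 (edgeR adjusted p = 0.0505 to 0.0562). Gstm7 (0.96) lost it without p57KO 2, 3 or 4 or p57WT 1, 3 or 5 (edgeR adjusted p = 0.0507 to 0.0638). Gstm5 was at 75.4, 85.02, 92.5, 114 and 59.8 CPM in p57KO 1 to 5, against 63.2, 88.5, 73.5, 85.7 and 72.2 CPM in p57WT 1 to 5, with overlapping genotypes (log2 fold change 0.15 with an SE of 0.22, edgeR adjusted p = 0.596). Gstm5 thus differed by less than its error on the main scale, beside neighbours that were called.

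Gstp1, the pi class enzyme found in many epithelia, was at 183, 537, 401, 587 and 308 CPM in p57KO 1 to 5, against 218, 213, 163, 155 and 109.7 CPM in p57WT 1 to 5. p57KO 1 lay among the p57WT libraries and the other 4 above them (log2 fold change 1.23 with an SE of 0.32, edgeR adjusted p = 0.011). All 3 pi genes were higher, Gstp2 at 1.85 and Gstp3 at 1.61, and on the epithelial scale none of them passed. Windows identical to each other or to a pseudogene made up 17.6% of Gstp1 and 35.7% of Gstp2.

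Gsto1, an omega class enzyme that reduces dehydroascorbate, had the most reads of all the enzyme genes, at 461, 818, 480.5, 596 and 496 CPM in p57KO 1 to 5, against 282, 148, 195, 196 and 136 CPM in p57WT 1 to 5. The genotypes did not overlap, p57WT 1 being the highest p57WT library (log2 fold change 1.58 with an SE of 0.27, edgeR adjusted p = 0.0013). Gsto2 was higher at 2.38 (edgeR adjusted p = 0.0103), and on the epithelial scale neither passed. Gstk1, the kappa enzyme of mitochondria and peroxisomes, was at 39.1, 43.7, 18.4, 27.1 and 17.1 CPM in p57KO 1 to 5, against 13.3, 13.6, 14.4, 14.5 and 11.2 CPM in p57WT 1 to 5. Its genotypes did not overlap (log2 fold change 1.12 with an SE of 0.29, edgeR adjusted p = 0.0102), but its sign turned on the epithelial scale.

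Of the theta class, Gstt2 and Gstt3 were higher and Gstt1 did not pass, and on the epithelial scale none was higher, Gstt1 was lower and the signs of Gstt1 and Gstt2 turned. Gstt2 was at 109.6, 139, 80.6, 104 and 62.7 CPM in p57KO 1 to 5, against 73.1, 51.4, 40.5, 52.5 and 39.2 CPM in p57WT 1 to 5. p57KO 5 was below p57WT 1 and the other p57KO libraries were above all p57WT libraries (log2 fold change 0.95 with an SE of 0.26, edgeR adjusted p = 0.0131). Gstt3 had a log2 fold change of 1.78 (edgeR adjusted p = 0.00246). Gstz1, the maleylacetoacetate isomerase of tyrosine breakdown, was at 72.4, 76.3, 112, 124 and 70.97 CPM in p57KO 1 to 5, against 65.3, 69.3, 61.1, 66.6 and 42.1 CPM in p57WT 1 to 5. Every p57KO library was above every p57WT library, yet the test did not pass (log2 fold change 0.58 with an SE of 0.24, edgeR adjusted p = 0.0679), and the sign turned on the epithelial scale. Without p57KO 1 it passed (log2 fold change 0.66, edgeR adjusted p = 0.0404), as it did without p57KO 5 (0.67, edgeR adjusted p = 0.0451).

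Among sulfotransferases, Sult1b1 and Sult1d1 were higher on both scales. Sult1d1, which acts on catecholamines and other phenols in the mouse, had the most reads of them, at 451, 609.8, 197, 259 and 200.1 CPM in p57KO 1 to 5, against 65.2, 18.04, 39.3, 28.4 and 13 CPM in p57WT 1 to 5. The genotypes were well apart and p57KO 1 and 2 were the highest (log2 fold change 3.39 with an SE of 0.49, edgeR adjusted p = 0.000519). Per kilobase it ranked 3rd of 79 in p57KO and 9th in p57WT. Sult1b1, known for thyroid hormone sulfation, had 127, 210.2, 249, 387 and 174 CPM in p57KO 1 to 5, against 52.8, 27.4, 41.97, 37.03 and 19.1 CPM in p57WT 1 to 5. Here p57KO 1 was the lowest of its genotype and above p57WT 1 (log2 fold change 2.69 with an SE of 0.35, edgeR adjusted p = 0.000345). Sult1a1 did not pass (log2 fold change -0.92, edgeR adjusted p = 0.388), and its sign turned without p57WT 5, at 0.48.

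Sult6b2 was at 5.14, 11.99, 108, 94.4 and 34.2 CPM in p57KO 1 to 5, against 4.65, 3.03, 5.79, 2.74 and 3.31 CPM in p57WT 1 to 5. p57KO 3 to 5 were high, p57KO 2 less so and p57KO 1 lay among the p57WT libraries (log2 fold change 3.71 with an SE of 0.71, edgeR adjusted p = 0.00215). Sult2b1, a cholesterol sulfotransferase, had 10.1, 9.96, 5.83, 8.41 and 5.55 CPM in p57KO 1 to 5, against 5.67, 3.47, 2.65, 6.52 and 3.54 CPM in p57WT 1 to 5. The genotypes overlapped (edgeR adjusted p = 0.0721), and the sign turned on the epithelial scale. Sult2b1 was called higher by DESeq2 (DESeq2 adjusted p = 0.029), by limma voom (limma voom adjusted p = 0.0483) and in the authors' deposited table. Sult5a1 was lower, at 0, 1.01, 0.279, 0.306 and 0.954 CPM in p57KO 1 to 5, against 1.47, 0.748, 0.362, 2.61 and 10.5 CPM in p57WT 1 to 5, with p57WT 5 far above the rest (log2 fold change -2.59 with an SE of 0.95, edgeR adjusted p = 0.0453). Without p57WT 5 its log2 fold change was -1.31 (edgeR adjusted p = 0.251), and its call was also lost without p57KO 1, 3 or 4 or p57WT 1 or 4. Sult4a1, which has no known activity, was at 0.943, 0.38, 1.19, 1.07 and 1.47 CPM in p57KO 1 to 5, against 1.59, 1.93, 0.362, 1.17 and 1.18 CPM in p57WT 1 to 5 and did not pass (edgeR adjusted p = 0.631). Cyp2t4, likewise low, was lower in p57KO (log2 fold change -2.33 with an SE of 0.79, edgeR adjusted p = 0.032) and lost its call without p57KO 2, 3 or 4 or p57WT 1, 3, 4 or 5 (edgeR adjusted p = 0.0504 to 0.0826).

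A further 5 fold changes were those of tested genes that did not pass. Cyp2r1, a vitamin D hydroxylase, had a log2 fold change of 0.94, Cyp2u1, a fatty acid hydroxylase, one of 0.41, Cyp2w1 one of 0.71, Cyp4f14 one of 1.28 and Gstt1 one of 0.36 (edgeR adjusted p = 0.205, 0.464, 0.307, 0.136 and 0.378). The genotypes overlapped for each of them. With the ribosomal RNA class as a term Cyp2w1 passed (log2 fold change 1.56, edgeR adjusted p = 0.0187). The 14 genes too low to test had 53 to 269 counts summed over all libraries. Of these Cyp46a1 was lower in all p57KO libraries than in any p57WT library, Cyp2j5 was above in all p57KO libraries, and Cyp26b1, Cyp27b1, Cyp2c23, Cyp2c38, Cyp2c67, Cyp2f2, Cyp2j13, Cyp3a25, Cyp4a10, Sult1c2, Sult6b1 and Ugt1a2 overlapped.

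Levels can be compared between genes only per length, here as CPM per kilobase of exon. In p57KO the highest were Gsto1 at 282 ± 73.1, Gstp1 at 260.3 ± 107, Sult1d1 at 139.6 ± 73.8, Gstm1 at 131 ± 48.3 and Gstm3 at 129 ± 47.6 CPM per kilobase (SD, n = 5). In p57WT they were Gstp1 at 111 ± 28.9, Gsto1 at 94.6 ± 28.4, Gstm1 at 76.1 ± 15.3, Gstm5 at 59.9 ± 8.14 and Gstm2 at 34.5 ± 7.35 CPM per kilobase (SD, n = 5), followed by Cyp1b1 at 30.2 ± 11.98. Gsto1 and Gstp1 differed by less than their SD in both genotypes, as did Sult1d1, Gstm1 and Gstm3 in p57KO. The highest P450 per kilobase was Cyp2c68 at 77.1 ± 33.05 CPM per kilobase in p57KO (SD, n = 5), ranked 7th, and Cyp1b1 in p57WT.

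Within p57KO, libraries of 607 and 608 differed for some enzyme genes. This contrast was chosen after the data were seen and set p57KO 1 and 2 over p57KO 3 to 5. Of the 65 genes, 5 were higher in 607 and 4 lower, where 3.01% and 3.67% of all genes were. Higher were Cyp27a1 (log2 fold change 3.64, edgeR adjusted p = 0.004), Cyp2c66 (3.39, edgeR adjusted p = 0.00776), Gsta1 (3.28), Gsta4 (2.27) and Gsta3 (2.10). Lower were Sult6b2 (-3.19, edgeR adjusted p = 0.0107), Cyp1b1 (-2.90), Cyp7b1 (-2.21) and Cyp2u1 (-1.94). Smooth muscle sums were 5209 and 8555 CPM in the 607 p57KO libraries, against 23679 to 36703 CPM in the 608 p57KO libraries. The part of this difference was not tested.

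**Figure D5:**
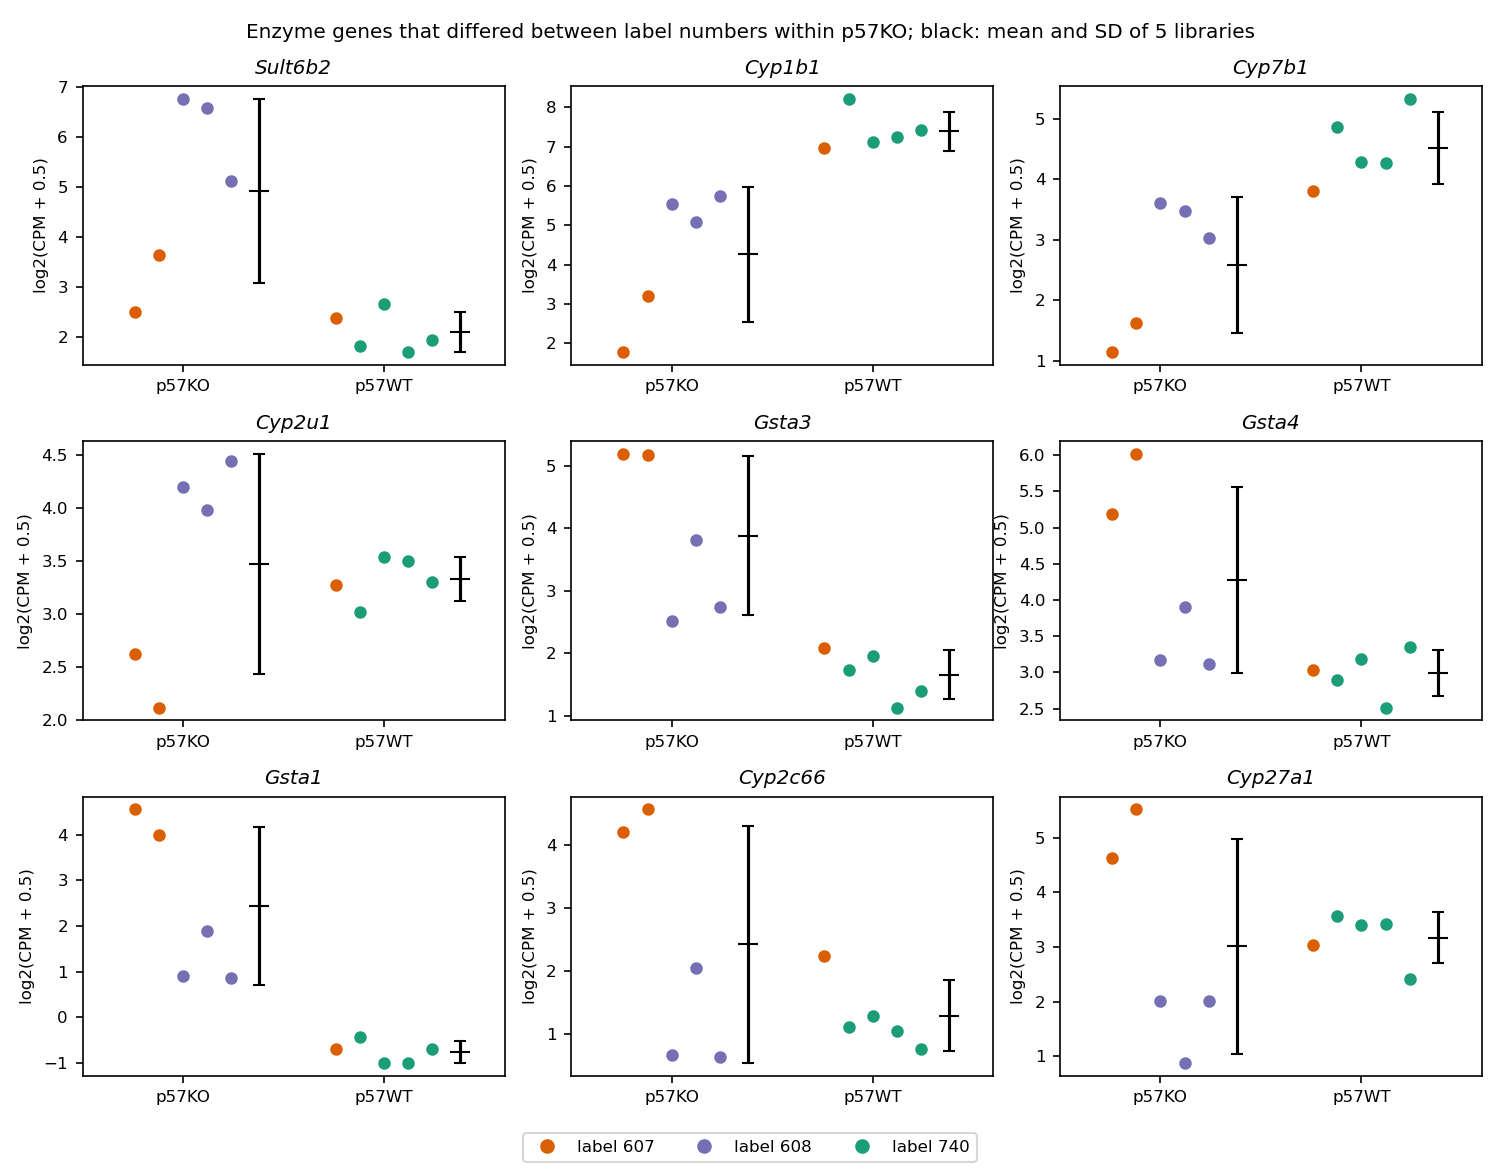
Log2(CPM + 0.5) in each library for the 9 enzyme genes that differed between label numbers 607 and 608 within p57KO, with p57KO left, p57WT right, colours for the label number and black marks for the mean and SD of 5 libraries. Orange (607) points lie above purple (608) points in p57KO for 5 genes and below them for 4.

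Genes that work around these enzymes were counted by list, where 19.3% of all tested genes were higher and 17.2% lower on the main scale and 2.97% higher and 58.7% lower on the epithelial scale. Of 34 receptors and regulators, 15 were higher in p57KO and 1 lower, with a median log2 fold change of 0.74, and on the epithelial scale 2 were higher and 12 lower. Nr1h4, the bile acid receptor FXR, was at 193, 291, 186, 186 and 106 CPM in p57KO 1 to 5, against 41.1, 24.7, 42.9, 35.1 and 21.3 CPM in p57WT 1 to 5, without overlap (log2 fold change 2.54 with an SE of 0.30, edgeR adjusted p = 0.000254). Hnf4g, a nuclear factor of the gut epithelium, rose by 2.05, Nr1h3 (LXR alpha) by 1.58 and Ppara by 1.83. Rara, a retinoic acid receptor, was lower at -0.73, and the call was lost without p57KO 3, p57KO 4, p57WT 1, p57WT 4 or p57WT 5 (edgeR adjusted p = 0.0513 to 0.0699). The textbook sensors that follow were chosen after their values were seen. Ahr rose by 0.98 (edgeR adjusted p = 0.0221), Nr1i3 (CAR) by 1.97 (edgeR adjusted p = 0.00935) and Nfe2l2 (NRF2) by 1.24 (edgeR adjusted p = 0.0206). Nr1i2 (PXR) was at 80.7, 34.2, 19.1, 23.8 and 23.1 CPM in p57KO 1 to 5, against 31.5, 8.78, 20.99, 19.2 and 13.4 CPM in p57WT 1 to 5, with overlap, and did not pass (log2 fold change 0.95, edgeR adjusted p = 0.1).

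Of 18 electron donors of P450s and heme synthesis genes, 10 were higher and none lower, with a median of 0.78, and on the epithelial scale none was higher and 5 lower. Cyb5a, cytochrome b5, rose by 1.58, Alad, the second enzyme of heme synthesis, by 1.23 and Por, the P450 reductase, by 1.23 (edgeR adjusted p = 0.00166, 0.0062 and 0.014). Por was at 217, 205, 84.3, 71.1 and 72.7 CPM in p57KO 1 to 5, against 51.5, 65.6, 58.6, 53.1 and 48.3 CPM in p57WT 1 to 5. p57KO 1 and 2 stood above the other p57KO libraries, and the genotypes did not overlap.

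Of 20 NRF2 target genes outside the enzymes, 14 were higher and 1 lower, with a median of 1.33, and on the epithelial scale 2 were higher and 5 lower. Srxn1, sulfiredoxin, rose by 1.87, Gsr, glutathione reductase, by 1.5, Gss, glutathione synthetase, by 1.40 and the peroxiredoxin Prdx1 by 1.37. Ephx1, an epoxide hydrolase, was lower at -1.55 (edgeR adjusted p = 0.0492), and the call was lost on leaving out any library other than p57KO 3 or p57WT 3 (edgeR adjusted p = 0.0516 to 0.115). Macrophage and neutrophil markers, cells that also use this system, summed to 209 to 7763 CPM in p57KO and 28.2 to 160.3 CPM in p57WT, and their part was not tested.

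Of 39 other phase I enzymes tested, 29 were higher and 1 lower, with a median of 1.83, and on the epithelial scale 13 were higher and 5 lower. Fmo5, a flavin monooxygenase, was at 57.3, 79.6, 69, 86.5 and 47.5 CPM in p57KO 1 to 5, against 7.26, 10.6, 13.9, 5.998 and 4.84 CPM in p57WT 1 to 5. Its genotypes were far apart (log2 fold change 2.99 with an SE of 0.32, edgeR adjusted p = 0.000178). The alcohol dehydrogenase Adh1 rose by 3.53 and the aldo-keto reductases Akr1c19 and Akr1c12 by 2.78 and 2.69. Aldh1a2, which makes retinoic acid, was lower at -2.56 (edgeR adjusted p = 0.0083).

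Of 16 other phase II genes tested, 10 were higher and 1 lower, with a median of 1.01, and on the epithelial scale 1 was higher and 3 lower. Mgst1 and Mgst2, microsomal glutathione transferases, rose by 2.18 and 1.57, the glutathione-dependent prostaglandin D synthase Hpgds by 2.15, and Ugdh, which makes the glucuronic acid donor, by 1.44. Hnmt, which methylates histamine, was at 2.23, 2.32, 2.897, 4.28 and 1.91 CPM in p57KO 1 to 5, against 9.64, 19.97, 15.8, 12.9 and 12.6 CPM in p57WT 1 to 5. All p57KO libraries were below all p57WT libraries (log2 fold change -2.37 with an SE of 0.34, edgeR adjusted p = 0.000518).

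Of 22 transporters tested, 9 (40.9%) were higher and 5 (22.7%) lower, where 19.3% and 17.2% of all genes were, with a median of 0.69, and on the epithelial scale 5 were higher and 7 lower. The higher ones included the bile acid carriers of the enterocyte, Slc51a at 3.02, Slc51b at 2.49 and Slc10a2 at 3.38, and the apical conjugate pump Abcc2 at 1.71. Slc51a was at 81.3, 174, 239.96, 304 and 107 CPM in p57KO 1 to 5, against 22.8, 17.1, 25.6, 22.04 and 24.7 CPM in p57WT 1 to 5, without overlap. The lower ones included Abcc1 at -1.68, a conjugate pump of many tissues, Slc10a1 at -1.82, Slco3a1 at -1.88 and Abcc5 at -1.13.

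The promoters of the enzyme genes were searched for the 6 motifs on both strands. Of the 79 genes 69 had an entry, 86 entries in all, and 41 higher genes had 50. The aryl hydrocarbon receptor motif, TNGCGTG, was in 3 of the 50 promoters of higher genes and in 5.07% of all promoters. The antioxidant response motif, TGACNNNGC, was in 4 of the 50 and in 12.4% of all. The GATA motif, given above, was in 13 of the 50 and in 11.2% of all, and the CDX motif in 7 of the 50 and 10.9% of all. The HNF1 motif, GTTAATNA, was in 5 of the 50 and in 2.54% of all, and the HNF4 motif in 4 of the 50 and 0.475% of all. None was in the 3 promoters of lower genes. Entries of 1 gene overlap and related genes have related promoters, so these shares are a description with no test.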

How the data were processed

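RNA sequencing was done on 10 libraries of sorted cells, 5 p57KO and 5 p57WT, grouped by the labels. The authors deposited raw read counts per gene, normalized counts (a signal, each count divided by 1 size factor per library), log2 fold changes and adjusted p-values in 1 table, per the file headers. The smallest deposited mean normalized count was 3.00, so lower genes were not analysed here. Tools in the submitters' processing notes are STAR 2.6.1d, HTSeq, DESeq2 1.22.2, Cufflinks 2.2.1, Trim Galore and FastQC, on GRCm38. The sources used here give no strand setting, gene annotation or treatment of reads shared by genes.

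Counts were tested with edgeR 4.0.16 (R 4.3.3), by TMM scaling, filterByExpr with a minimum count of 10, a quasi-likelihood test of genotype over all 10 libraries and Benjamini-Hochberg adjustment over the 16710 genes kept, at 0.05. The script was tested on simulated data. CPM are counts divided by the TMM-adjusted library total and scaled to a common total, and 3 counts correspond to 0.105 to 0.391 CPM. Total counts per library set the precision, and intervals cover counting error only. Alternatives were RLE scaling, DESeq2 1.42.0, limma voom 3.58.1, no filter, a replicate block, the label number and the ribosomal RNA class (over 5% of counts) as terms, scaling to epithelial markers, and leaving out libraries. Coordinates are from GENCODE M21 (GRCm38) and matched all 79 genes by identifier. No column of other samples was present or used.

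Members and gene lists were chosen with earlier results of these data known. Values in every library are given for called genes averaging 2 CPM or more, namely up to 12 in each direction ranked by fold change (3 lower genes qualified) and for the gene with the highest mean CPM in each enzyme group. Of each list up to 4 genes per direction with the smallest p are named, and those of them shown in every library were chosen after their values were seen. Other called genes are named with their fold change. For the list of electron donors and heme synthesis, 1 gene that this rule names is not reported here. Genes outside this rule, namely Cyp2c66, Cyp27a1, Cyp39a1, Cyp46a1, Gstm5, Sult1a1, Sult1b1, Cyp2d26, Ugt1a6a, Gstt1, Cyp2r1, Cyp2u1, Cyp2w1, Cyp4f14 and Cps1, were chosen after their values were seen, as were the short HNF4 and GATA stretches.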

Additional observations from a re-analysis of the deposited data

Results flagged for a closer look

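Of 64 groups of 5 libraries examined for 32 named genes, 5 held a library far from the others. The cutoff gives about 1 in 20 by chance for independent, normally distributed values. CPM of genes from the same libraries are not such values, so the chance rate here is not known. Ugt1a1 was at 18.0 CPM in p57KO 2, and the next p57KO library was at 5.01 CPM. Cyp26b1 was at 0.781 CPM in p57KO 5, and the next at 0.127 CPM. Cyp1b1 was at 298 CPM in p57WT 2, and the next p57WT library at 171 CPM. Sult5a1 was at 10.5 CPM in p57WT 5, and the next at 2.61 CPM. Ugt1a7c was at 27.7 CPM in p57WT 1, and the next at 11.1 CPM.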

How the results depend on the processing

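The count of enzyme genes higher and lower in p57KO was 43 and 6 of 65 tested with RLE scaling, as in the main test, and 41 and 4 of 65 with limma voom. More genes entered the other fits, with 49 and 7 of 79 called by DESeq2, 45 and 6 of 79 without a filter and 44 and 7 of 69 without p57KO 1 and 2. Over the 65 genes of the main test these counts were 45 and 6, 43 and 5, and 42 and 5. It moved to 9 and 2 within label number 607, to 28 and 2 with the ribosomal RNA class as a term and to 23 and 12 on the epithelial scale. Leaving out 1 library gave 38 to 45 higher and 3 to 6 lower, with 3 lower without p57KO 3, p57KO 4, p57WT 4 or p57WT 5. Of 49 called genes, 40 kept the call in every fit that left out 1 library.

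The sign turned for these log2 fold changes. Cyp27a1 was at -0.40 with limma voom, -0.20 with the block, -0.22 with the ribosomal RNA class, -0.61 on the epithelial scale, -1.61 without p57KO 1 and 2 and -0.19 without p57KO 2. Within 607 Cyp4f17 was at 0.045, Cyp4f14 at -0.24, Cyp39a1 at -0.28, Cyp2w1 at -0.70, Sult1a1 at 1.25 and Cyp2u1 at -0.96. With the ribosomal RNA class Gstt1 was at -0.17 and Gstm5 at -0.12. The epithelial scale is set by markers that were mostly higher in p57KO on the main scale, and its all-gene median was -1.20. On it the values were Gstk1 -0.20, Gstt2 -0.29, Gstm2 -0.41, Gstm4 -0.0086, Gstm7 -0.28, Cyp4f13 -0.18, Gstm1 -0.56, Sult2b1 -0.38, Gstz1 -0.64, Cyp11a1 -0.13, Cyp2r1 -0.25, Cyp39a1 -0.56, Cyp2w1 -0.35, Gstt1 -0.95, Cyp2u1 -0.74, Gstm5 -1.14 and Cyp20a1 -1.28. Without p57KO 1 and 2 Cyp2c66 was at -0.041 and Sult4a1 at 0.023. Over the fits that left out 1 library, Cyp27a1 ranged from -0.19 to 1.12, Cyp2w1 from -0.0015 without p57KO 5 to 0.98, Cyp20a1 from -0.040 without p57WT 4 to 0.22, with -0.024 without p57WT 1, and Sult1a1 from -1.64 to 0.48 without p57WT 5. The cause was not tested.

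The labels number the libraries 1 to 5 in each genotype, but same-numbered libraries did not deviate together (correlations 0.226, 0.0626, -0.148, -0.146 and 0.171), so the numbers are not taken as pairs. With a replicate block the counts were 42 and 5. Depth limits the genes of few counts, such as Gsta1, Cyp2t4 and Sult5a1, whose p57WT or p57KO values lie near 3 counts.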

Other observations

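Genes of retinoid handling, the uptake, storage and oxidation of vitamin A, were higher in p57KO in 10 of 18 tested. The other 8 held 3 lower genes, a share of the list (16.7%) near that of all genes, of which 19.3% were higher and 17.2% lower. The list had a median log2 fold change of 0.91, and on the epithelial scale 4 were higher and 5 lower, where 2.97% and 58.7% of all genes were. Rbp2, the retinol-binding protein of the enterocyte, was at 223, 528, 375, 532 and 431 CPM in p57KO 1 to 5, against 82.7, 22.9, 79.96, 36.8 and 27.4 CPM in p57WT 1 to 5, without overlap (log2 fold change 3.07 with an SE of 0.42, edgeR adjusted p = 0.000403). Rbp4, the retinol carrier of the blood, was at 139.7, 446, 121, 104 and 120.1 CPM in p57KO 1 to 5, against 6.81, 0.709, 6.87, 4.17 and 4.14 CPM in p57WT 1 to 5, highest in p57KO 2 (log2 fold change 5.38 with an SE of 0.64, edgeR adjusted p = 0.000249). Bco2, a carotenoid-cleaving enzyme, rose by 3.13 and Isx, an intestinal homeobox factor, by 1.55. Rdh10, which oxidises retinol, was at 35.1, 35, 35.2, 33.1 and 43.3 CPM in p57KO 1 to 5, against 40.8, 104, 63.1, 60.8 and 64.99 CPM in p57WT 1 to 5, where only p57KO 5 reached a p57WT library (log2 fold change -0.88 with an SE of 0.25, edgeR adjusted p = 0.0143).

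Of 16 tested genes of steroid synthesis, 4 (25%) were higher in p57KO and none lower, against 19.3% and 17.2% of all genes, and the share of higher genes was near that of all genes. The list had a median log2 fold change of 0.73, and on the epithelial scale 2 were higher and 3 lower. All 4 higher genes were hydroxysteroid dehydrogenase genes. Hsd17b2, which inactivates estradiol and testosterone, was at 31.9, 47.8, 35.4, 48.7 and 25.3 CPM in p57KO 1 to 5, against 10.6, 7.64, 7.84, 7.17 and 7.68 CPM in p57WT 1 to 5, without overlap (log2 fold change 2.21 with an SE of 0.25, edgeR adjusted p = 0.000216). Hsd17b13, Hsd17b12 and Hsd17b7 rose by 2.18, 1.53 and 0.79 (edgeR adjusted p = 0.000254, 0.00178 and 0.0296).

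Some genes of the lists were far higher in p57KO 1 and 2 than in the other libraries, chosen here after their values were seen. Akr1b7, an aldo-keto reductase, was at 289, 369, 1.81, 1.45 and 1.82 CPM in p57KO 1 to 5, against 0.908, 0.394, 2.05, 1.43 and 0.236 CPM in p57WT 1 to 5. Hmox1, heme oxygenase, was at 50.8, 309, 9.88, 6.08 and 2.95 CPM in p57KO 1 to 5, against 1.36, 0.591, 0.121, 0.13 and 8.63 CPM in p57WT 1 to 5. Both p57KO libraries of label number 607 stood far above the other 8 libraries for these genes.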
